A study of Equus caballus with 12 samples.

Results

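SOD2, SOD3 and CAT encode 3 enzymes that remove superoxide and hydrogen peroxide, and they are the 3 genes of this kind, out of 1341 genes, that were found by symbol in the authors' table of genes called different between cytokine-licensed and naive horse cells. The cells were mesenchymal stem cells (MSCs), adherent stromal cells, and came from equine bone marrow. For 72 hours, MSCs from 6 donor animals were kept with human IL-1β (2 ng/ml) plus human TGF-β2 (1 ng/ml), both recombinant, as the dual-licensed group, or in standard medium without added cytokine as the naive group, giving 6 licensed and 6 naive libraries paired by animal. Both groups were grown in low-glucose DMEM with fetal bovine serum, and messenger RNA was sequenced after polyA selection. No genotype, sex or age of the horses is given in the labels, and the human cytokines were used on horse cells.

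Superoxide is made as a by-product of mitochondrial respiration and by NADPH oxidases. Superoxide dismutases turn it into hydrogen peroxide: SOD2 is the manganese enzyme of the mitochondrial matrix, and SOD3 is a secreted copper and zinc enzyme that binds to the extracellular matrix and the cell surface. Catalase, encoded by CAT, is the heme enzyme of peroxisomes that breaks hydrogen peroxide down to water and oxygen. SOD2 is a classical target of NF-κB, the transcription factor activated by IL-1.

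The members differed in direction. SOD2 was higher in licensed than in naive MSCs, while SOD3 and CAT were lower, and each gene moved in its own direction in 6 of 6 horses, as did 93.8% of the genes in the table. In the authors' deposited table the log2 fold change of licensed over naive was 2.64 for SOD2 (adjusted p = 0.0112), -3.21 for SOD3 (adjusted p = 2.13e-11) and -1.93 for CAT (adjusted p = 5.72e-26). The authors called 10.2% of an estimated 13183 tested genes, 5.08% as higher and 5.09% as lower. The members are in the table because they were called, so these calls and the tests below that reuse the same libraries describe the genes and are not independent evidence for a change. Levels are given as normalized counts, which are reads divided by 1 size factor per library. They are not divided by gene length, so levels are compared between libraries and not between genes. In these bulk libraries, more or fewer cells expressing a gene and more or less RNA per cell cannot be told apart.

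**Figure D1:**
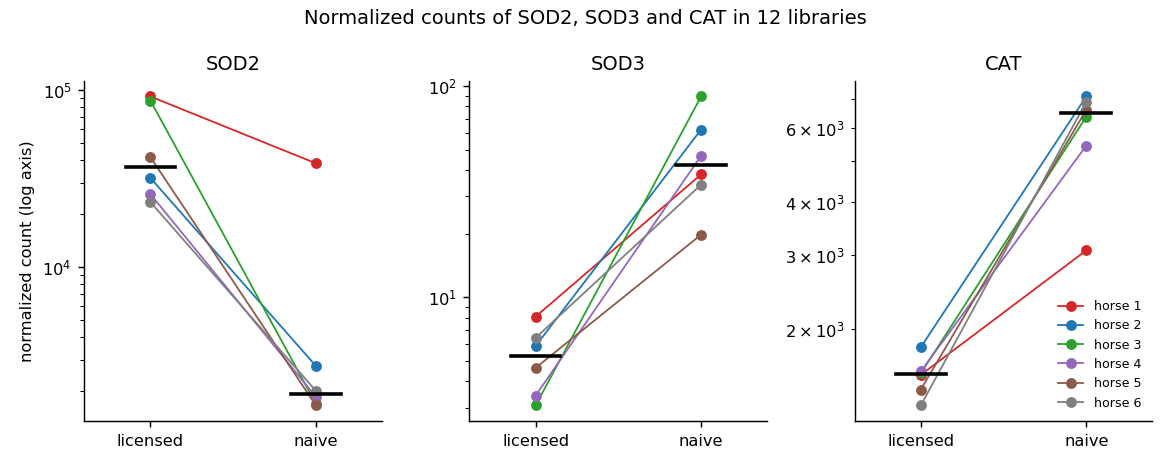
Normalized counts (log axis, different range in each panel) of SOD2, SOD3 and CAT in the licensed and naive library of each horse. Points joined by a line are the same horse, and black bars are group medians. The naive library of horse 1 lies at 38513 for SOD2, among the licensed libraries, and at 3075 for CAT, below the other naive libraries.

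SOD2 (ENSECAG00000011797), the mitochondrial enzyme, reached 91848, 31848, 87111, 25812, 41744 and 23259 normalized counts in the licensed libraries of horses 1 to 6, against 38513, 2762, 1691, 1847, 1651 and 1998 in their naive libraries. Licensed cells of horses 1 and 3 were more than double the level of any other licensed library. The groups overlapped through a single library, since naive cells of horse 1 exceeded 3 of the 6 licensed libraries. The naive level of horse 1 was 13.9 times that of the next highest naive library, and the other 5 naive libraries lay between 1651 and 2762. SOD2 averaged 50270.5 ± 31067 normalized counts in licensed and 8077 ± 14916 in naive cells (SD, n = 6 each), and without horse 1 it averaged 41955 ± 26227 in licensed and 1990 ± 453 in naive cells (SD, n = 5 each).

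The size of the SOD2 rise depended on how horse 1 entered the estimate. Within horses, SOD2 was 2.38 times higher in licensed cells of horse 1, and 11.5, 51.5, 14.0, 25.3 and 11.6 times higher in those of horses 2 to 6. The fit of limma to log2(normalized count + 1) over all listed genes, which averages on the log scale, gave a log2 fold change of 3.75 ± 0.70 (SE; adjusted p = 2.71e-04), corresponding to 13.4-fold. On the ratio of group means, as in the authors' deposited table, the rise was 6.22-fold, because the naive mean includes the 38513 of horse 1. Leaving out both libraries of horse 1 gave a limma log2 fold change of 4.24 ± 0.32 (adjusted p = 6.30e-07), and leaving out only its naive library gave 4.46. With the edgeR quasi-likelihood test on reads recovered from the normalized counts the value was 2.64 (adjusted p = 0.0115) with all horses and 4.40 (adjusted p = 2.34e-06) without horse 1. The exact sign-flip permutation test of the 6 within-horse differences gave p = 0.03125 (two-sided), which is the smallest that 6 pairs allow. Any gene that moves in 1 direction in all 6 horses gets this p. It therefore adds nothing to the directions, here and for SOD3 and CAT below.

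SOD3 (ENSECAG00000035543), the secreted enzyme, had 8.08, 5.87, 3.07, 3.41, 4.62 and 6.41 normalized counts in the licensed libraries of horses 1 to 6, against 38.1, 62.1, 89.1, 46.7, 19.7 and 34.1 in their naive libraries. Every licensed library was below every naive library. CAT groups did not overlap either, and 59.2% of the listed genes had groups that did not overlap. SOD3 averaged 5.24 ± 1.91 normalized counts in licensed and 48.3 ± 24.4 in naive cells (SD, n = 6 each), and the limma log2 fold change was -2.89 ± 0.37 (SE; adjusted p = 1.24e-05). The exact sign-flip permutation test gave p = 0.03125 (two-sided).

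SOD3 was measured from few reads. The licensed libraries held 3 to 8 reads of the gene each and 33 in all, and the naive libraries 19 to 92 each and 280 in all. Summed over libraries and scaled by their size factors, the licensed level was 10.7% of the naive level, with an exact 95% interval from 7.21% to 15.4% that covers counting error only. Single licensed values are imprecise, and the exact 95% interval of the 3 reads of horse 3 ran from 0.619 to 8.77 reads. Horse 3 had the highest naive and the lowest licensed SOD3 level, and with it the deepest fall, to 3.44% of its naive level. The levels left in licensed cells of horses 1, 5 and 6 were 21.2%, 23.4% and 18.8% of their naive levels, and those of horses 2 and 4 were 9.45% and 7.32%.

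CAT (ENSECAG00000019408), the peroxisomal enzyme, had 1560, 1813, 1573, 1590, 1440 and 1320 normalized counts in the licensed libraries of horses 1 to 6, against 3075, 7113, 6371, 5439, 6611 and 6908 in their naive libraries. The licensed libraries lay close together, and the naive library of horse 1 was the lowest of its group. CAT averaged 1549 ± 165 normalized counts in licensed and 5919 ± 1510 in naive cells (SD, n = 6 each). Its limma log2 fold change was -1.89 ± 0.20 (SE; adjusted p = 2.63e-06), and without horse 1 it was -2.07 ± 0.12. The exact sign-flip permutation test gave p = 0.03125 (two-sided). Horse 1 kept 50.7% of its naive level and the other horses between 19.1% and 29.2%. Its licensed level of 1560 was within the range of the other licensed libraries, 1320 to 1813, so that its smaller fall came with a lower naive level.

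**Figure D2:**
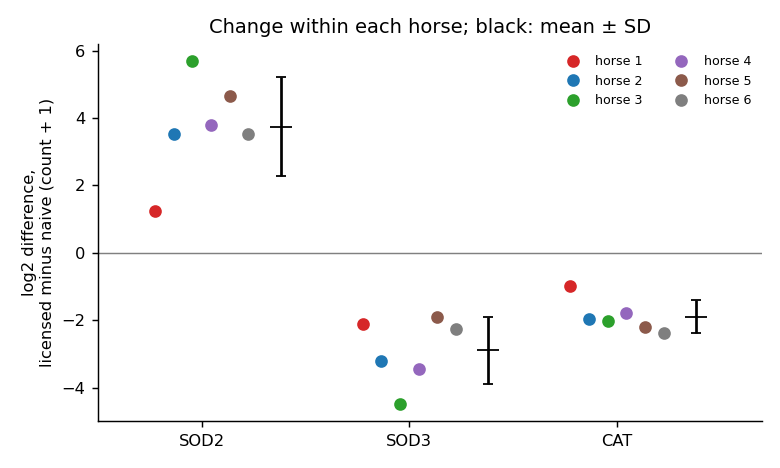
Log2 difference of licensed minus naive, on log2(normalized count + 1), for each horse and gene, with the mean and SD of the 6 horses in black. All SOD2 points lie above 0 and all SOD3 and CAT points below 0, and horse 1 has the smallest SOD2 rise (1.25) and the smallest CAT fall (-0.98).

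The spread between libraries of a group also differed by gene. On the log2 scale SOD2 varied with an SD of 0.87 among licensed and 1.78 among naive libraries, compared with medians of 0.52 and 0.56 over all listed genes, and its naive SD ranked 33 of 1341. CAT varied by 0.15 among licensed libraries, rank 1299 of 1341, and by 0.46 among naive libraries. The coefficient of variation of CAT was 10.7% in licensed and 25.5% in naive cells, and 10.0% in naive cells without horse 1. For SOD2 the same figure was 61.8% in licensed and 185% in naive cells, and 22.8% in naive cells without horse 1. SOD3 had SDs of 0.45 in licensed and 0.73 in naive libraries. At 3 to 8 reads per licensed library the 0.45 includes counting error, which was not separated from differences between horses. It is therefore not comparable with the SDs of SOD2 and CAT.

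Ranked by the deposited fold change, SOD2 was 131 of the 670 genes listed as higher, and SOD3 was 33 and CAT 198 of the 671 listed as lower. The order by the authors' p-value was different, with SOD2 at 603 of 670, SOD3 at 167 and CAT at 41 of 671. SOD2 thus combined a large change with a large spread, which among naive libraries came mainly from horse 1. CAT combined a moderate change with a small spread in licensed cells, while its naive SD ranked 822 of 1341. limma called all 3 members at an adjusted p below 0.05 and more than a 2-fold change, as it did 95.2% of the listed genes.

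The changes of the members were compared within horses over 3 pairs of genes, with Benjamini-Hochberg adjustment over the 3. The SOD2 change exceeded that of SOD3 by 6.63 ± 2.20 and that of CAT by 5.63 ± 1.87 on the log2 scale (SD, n = 6), higher in 6 of 6 horses in each case (exact sign-flip permutation test, two-sided, p = 0.03125, adjusted p = 0.0469). Both are differences between a gene that rose and a gene that fell in all 6 horses. The p, the smallest possible with 6 horses, was therefore fixed by the directions given above and adds nothing to them. The change of SOD3 minus that of CAT averaged -1.002 ± 1.06 (SD, n = 6), was negative in horses 1 to 4 and positive in horses 5 and 6, and ran from -2.45 to 0.31 (exact sign-flip permutation test, two-sided, p = 0.125, adjusted p = 0.125). Whether the falls of SOD3 and CAT differ in depth was therefore not resolved. With 5 in place of 1 added to every normalized count, which shrinks the fall of the low gene SOD3, the mean difference was -0.39.

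**Figure D3:**
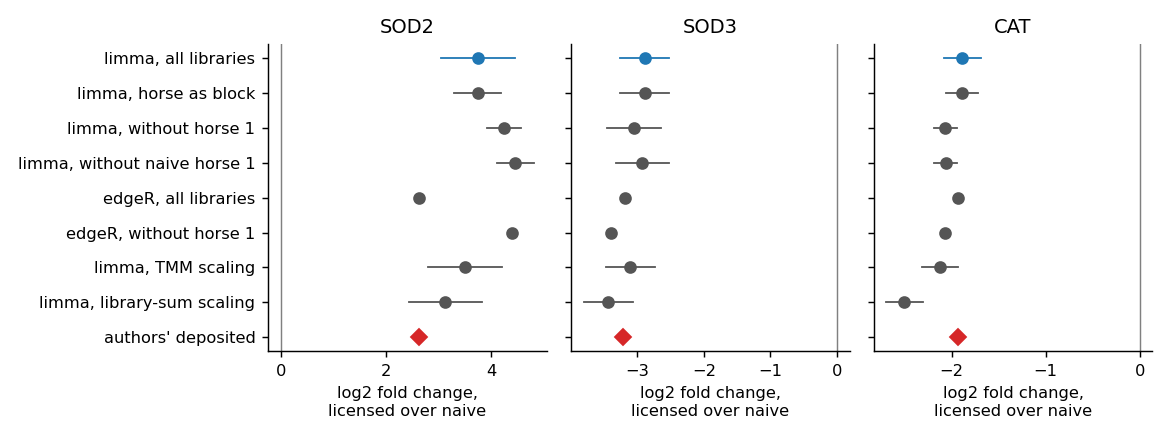
Log2 fold change of licensed over naive for each gene under different fits and scalings. Lines are SEs where the fit gives one, and the red diamond is the authors' deposited value. SOD2 moves between 2.64 and 4.46 with the fit and the presence of horse 1, while SOD3 and CAT stay below 0 in every fit shown.

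The naive library of horse 1 stood apart in SOD2 and CAT but not in SOD3. Its place was expressed as a percentage of the log2 distance from the mean of the other 5 naive libraries (0%) to the mean of the other 5 licensed libraries (100%), a measure chosen after the values were seen. It lay at 101% for SOD2, 51.7% for CAT and 7.28% for SOD3. The naive libraries of horses 2 to 6 lay between -33.1% and -6.89% for SOD2 and between -20.3% and 4.38% for CAT. For SOD3 the naive library nearest to the licensed level was that of horse 5, at 42.7%. Over all listed genes the median for horse 1 was 9.52%, and 24.98% of the genes lay above 50%, against 4.92% to 11.04% of the genes for the other horses. Naive cells of horse 1 were thus at the licensed level for SOD2 and about midway for CAT. Each gene has 1 highest and 1 lowest of the 6 naive libraries, so a library stands at the edge for 2 in 6 genes on average. Naive cells of horse 1 stood there for 61.1% of the listed genes, as the highest naive library for 358 and the lowest for 462 of the 1341. The shares of the other horses were not counted. Whether a culture condition, a library or the animal is behind this was not tested.

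**Figure D4:**
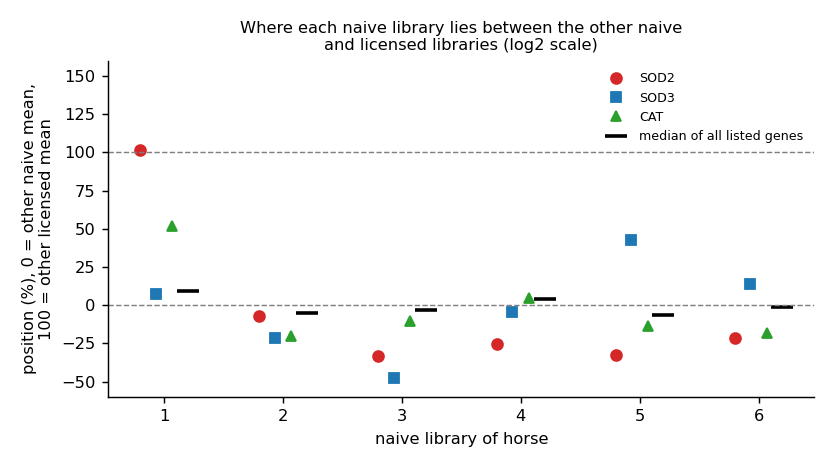
Position of each naive library between the mean of the other naive libraries (0%) and the mean of the other licensed libraries (100%) on the log2 scale, for SOD2, SOD3, CAT and the median of all 1341 listed genes. SOD2 of horse 1 is at 101% and CAT of horse 1 at 51.7%, while the medians of all genes stay between -6.28% and 9.52%.

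The relation of SOD2 to CAT between libraries rested on horse 1. Over the 12 libraries, after subtraction of the group means of log2(normalized count + 1), SOD2 and CAT had a Pearson correlation of -0.76, which became 0.24 over the 10 libraries without horse 1. SOD3 correlated with SOD2 at -0.05 and with CAT at 0.06. The libraries of a horse share the animal, so these values are descriptions only.

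The genes whose deviations were most like those of SOD2, among 919 with a symbol and at least 50 normalized counts in the higher group, were TNFAIP3 (r = 0.98), IFNAR2 (0.97), NFKBIZ (0.95) and SLC11A2 (0.95). TNFAIP3 encodes a deubiquitinase that limits NF-κB signalling, NFKBIZ a nuclear regulator of NF-κB target genes, IFNAR2 a chain of the type I interferon receptor, and SLC11A2 a divalent metal transporter. Each of the 4 had its highest naive level in horse 1. TNFAIP3 reached 400 normalized counts there, where naive cells of the other horses had 6.66 to 14.99. IFNAR2 reached 1880, where naive cells of the other horses had 564 to 788. The picking used the naive library of horse 1, where SOD2 deviates most, so high values there follow from it and are no separate result. Without horse 1 the correlations with SOD2 were 0.78 to 0.87 for these genes, and 1 of them, IFNAR2, stayed among the first 4, where it was joined by SLC39A14, SP6 and SLC2A1.

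MFAP4 (r = 0.80), CYYR1 (0.72) and MYEF2 (0.71) were among the genes closest to SOD3, and MFAP4 and MYEF2 remained among the first 4 without horse 1. These genes were listed as higher in licensed cells while SOD3 was lower. The likeness is therefore in deviations within a group and not in the response. SOD3 itself averaged 48.3 normalized counts in naive cells, below the floor of 50 set for the genes compared with it. With 3 to 8 SOD3 reads per licensed library, its deviations there include much counting error, so its likeness to any gene is imprecise. For CAT the closest were FGFR3 (0.92), LRRC15 (0.92), ASPN (0.88) and PCSK1N (0.87), of which none stayed among the first 4 without horse 1. LRRC15 was higher in licensed cells (limma log2 fold change 1.93) while CAT was lower. ASPN was listed as lower but was not called by limma (adjusted p = 0.123), and it rose in 1 horse. In naive cells of horse 1 FGFR3, a fibroblast growth factor receptor gene, had 201 normalized counts, compared with 441 to 986 in those of the other horses. ASPN, a small leucine-rich matrix protein gene, had 4.23 there, against 127 to 292. Because CAT was itself lowest in that naive library, such low values also follow from the picking.

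Around the members, 134 further genes of 9 redox lists were looked up by symbol, and the table held 14 of them, with 10 called higher and 4 called lower by the authors. This share is 10.4%, beside the 10.2% of all tested genes that were called. The shares have unlike bases, because the 134 are all symbols looked up, whether or not the authors tested them. In addition, 208 listed genes have no symbol. The count is therefore no finding about redox genes as a set, and the same limit holds for the single lists below. No listed gene carried the symbol of SOD1 or its copper chaperone CCS, of any of 8 glutathione peroxidases, of 13 genes of the peroxiredoxin and thioredoxin systems or of 31 genes of peroxisome assembly and oxidation. These are not analysed here, because the table holds only called genes. limma called the same numbers, 10 higher and 4 lower. When libraries were scaled by TMM or by their sum over the listed genes, which lowered the log2 fold changes of all genes by a median of 0.24 and 0.61, 5 and 3 of the 10 were still called higher. All 4 lower genes were called and no direction turned.

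The list of manganese, copper and zinc transport and metallothioneins covers the metals that superoxide dismutases need, and 3 of its 15 genes were in the table, all as higher, compared with 5.08% of all tested genes called higher. With so few genes the share is no finding about the list. The median limma log2 fold change of the 3 was 1.85, and over the 670 genes listed as higher it was 1.62. SLC39A14, an importer of manganese, zinc and iron, had 15752, 7083, 14187, 5799, 8537 and 6461 normalized counts in licensed cells of horses 1 to 6, against 3421, 2183, 2038, 1715, 1602 and 2004 in naive cells, a limma log2 fold change of 2.09 ± 0.27 (SE). As for SOD2, horses 1 and 3 were highest among licensed and horse 1 among naive libraries. SLC11A2, the divalent metal transporter DMT1, averaged 3050 ± 994 in licensed and 894 ± 497 in naive cells (SD, n = 6 each), where horse 1 reached 1901 and the other naive libraries 599 to 761. SLC30A1, a zinc exporter, rose by 1.07 ± 0.18 on the log2 scale (SE) and lost limma's call under TMM and library-sum scaling.

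Of 26 genes of enzymes that release superoxide or hydrogen peroxide, 5 were in the table, 4 higher and 1 lower, a share of 19.2% beside 10.2% of all tested genes, which was not tested. NOX4, an NADPH oxidase that mainly releases hydrogen peroxide, had 735, 487, 483, 514, 672 and 774 normalized counts in licensed cells of horses 1 to 6, against 73.0, 115, 163, 127, 262 and 135 in naive cells (limma log2 fold change 2.14 ± 0.27, SE, adjusted p = 1.21e-05). Its groups did not overlap, and in contrast to SOD2 the naive library of horse 1 was the lowest. The collagen cross-linking amine oxidase genes LOX and LOXL2, whose enzymes release hydrogen peroxide as a by-product, rose by 1.04 ± 0.25 and 1.20 ± 0.23 on the log2 scale (SE), while LOXL3 fell by 1.14 ± 0.32. LOX and LOXL2 lost limma's call under TMM and library-sum scaling, and LOX also without horse 3. MAOB, a monoamine oxidase of the outer mitochondrial membrane, was the least certain: it averaged 204 ± 262 normalized counts in licensed and 27.1 ± 33.7 in naive cells (SD, n = 6 each), with 547 and 534 in licensed cells of horses 1 and 4 and 17.4 to 79.2 in the other licensed libraries. Its limma adjusted p was 0.0458, and 0.155, 0.0698 and 0.0547 without horse 1, 2 or 3.

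Of 16 genes of glutathione synthesis and targets of the oxidative stress factor NRF2, HMOX1 and FTH1 were higher and GCLC was lower. HMOX1, heme oxygenase, averaged 7599 ± 3342 normalized counts in licensed and 2857 ± 1014 in naive cells, and FTH1, the ferritin heavy chain, 17156 ± 10029 in licensed and 7723 ± 1153 in naive cells (SD, n = 6 each). Their limma log2 fold changes were 1.35 ± 0.30 and 1.01 ± 0.27 (SE). FTH1 lost limma's call without horse 1 or 3 and under TMM and library-sum scaling, and HMOX1 lost it under library-sum scaling. GCLC, the catalytic subunit of the enzyme that starts glutathione synthesis, fell by 1.06 ± 0.30 on the log2 scale (SE), in 5 of 6 horses. The exception was horse 1, with 690 normalized counts in licensed and 623 in naive cells, where the other naive libraries lay between 1276 and 3077. Without horse 3 GCLC lost limma's 2-fold threshold.

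The 2 glutathione S-transferase genes in the table, of 15 on the list, were lower. GSTK1, the kappa class enzyme of mitochondria and peroxisomes, averaged 57.1 ± 18.1 normalized counts in licensed and 173 ± 57.5 in naive cells, and GSTO1, the omega class enzyme, 719 ± 193 in licensed and 1478 ± 385 in naive cells (SD, n = 6 each). GSTO1 lost the 2-fold threshold without horse 2. FOXO1, a transcription factor of stress resistance and metabolism, was the only listed gene of 8 FOXO and sirtuin genes and rose by 1.28 ± 0.20 on the log2 scale (SE), without limma's call under library-sum scaling.

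**Figure D5:**
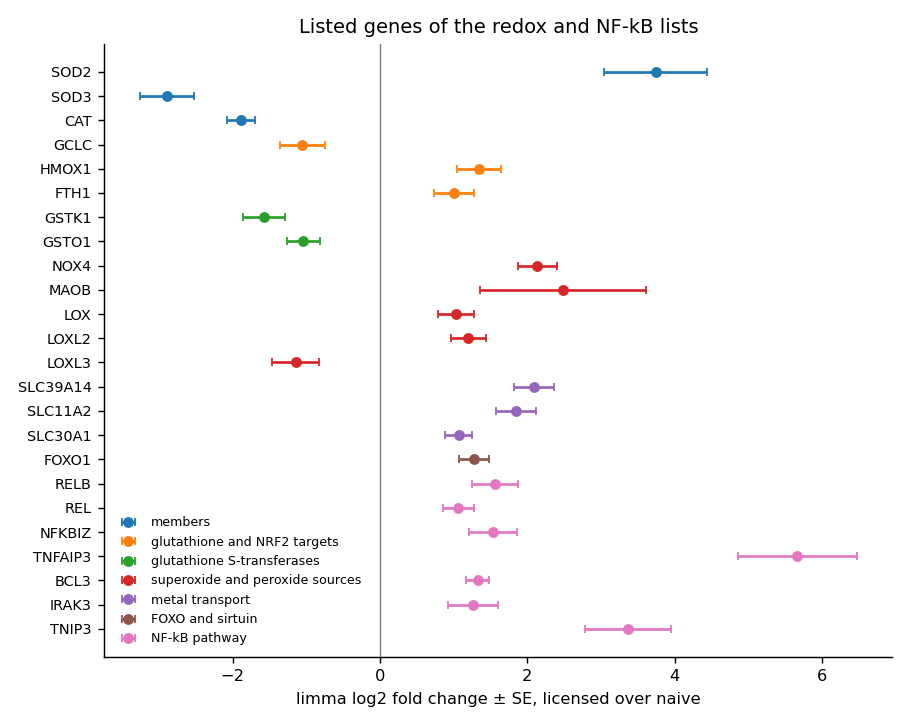
Limma log2 fold change of licensed over naive with its SE for SOD2, SOD3 and CAT, 14 other listed genes of the redox lists and 7 listed genes of the NF-κB list. Points right of 0 were higher in licensed cells. SOD2 (3.75) lies above the 14 other redox genes, of which MAOB (2.49) is highest, and SOD3 (-2.89) and CAT (-1.89) lie below them.

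Of 19 genes of the NF-κB pathway, 7 were in the table, all listed as higher like SOD2: TNFAIP3, TNIP3, RELB, NFKBIZ, BCL3, IRAK3 and REL. The other 12 are not analysed here, the authors called 5.08% of all tested genes higher, and the share of the list was not tested. Their median limma log2 fold change was 1.53, and over all 670 genes listed as higher it was 1.62. TNFAIP3 averaged 1352 ± 893 normalized counts in licensed and 76.7 ± 158 in naive cells (SD, n = 6 each). RELB, an NF-κB subunit, had 502 normalized counts in naive cells of horse 1, above the 114 to 183 of the remaining naive libraries, and a licensed mean of 555 ± 121. The naive library of horse 1 was the highest of its group for 6 of these 7 genes and for all 3 metal transport genes, and for 214 of the 670 genes listed as higher, while it was the lowest for 182 of the 670. Under library-sum scaling 2 of the 7 were still called by limma, and none turned direction. This list was chosen knowing the SOD2 result, and its members are not evidence for how SOD2 is controlled.

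Cell type markers could be checked only as far as the table lists them. Of 11 MSC markers THY1 was listed, with 2426 ± 1778 normalized counts in licensed and 18789.5 ± 10276 in naive cells (SD, n = 6 each). Of 5 pericyte and smooth muscle markers MCAM was listed, with 190 ± 40.1 in licensed and 502 ± 183 in naive cells. These shares of 9.09% and 20% stand beside the 10.2% of all tested genes that were called. With so few markers they are no finding about cell type. None of 9 myeloid, 8 lymphoid, 7 endothelial or 5 erythroid markers was listed, so their levels are not analysed here and the part of other cells in the SOD2 level of horse 1 was not tested.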

How the data were processed

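RNA of 12 cultures was sequenced, 6 licensed and 6 naive, 1 library per culture. The submitters' processing notes name Trimmomatic 0.36, STAR 2.5.2b, Subread 1.5.2 with its featureCounts, and DESeq2. The genome build is not given in the sources used here, nor are the annotation and the strand setting, so reads of overlapping genes may not be separable. The deposited library columns are a signal of reads divided by a size factor, called normalized counts, and the log2 fold change, the p-value and its adjusted form in the deposited table were computed by the authors. No gene in it has an absolute log2 fold change under 1.001 or an adjusted p over 0.0499. The number of genes the authors tested, 13183, was estimated from the ratio of adjusted p to p among whole numbers up to 20000.

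All values were whole multiples of 1 step per library within 0.01 reads, so reads were recovered, though in the licensed cells of horse 1 that step is close to 1. The listed genes held 2718393 to 3424328 reads per licensed and 1672419 to 1844648 per naive library. Whole-library depth is unknown.

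limma 3.58.1 (R 4.3.3, trend and robust, two-sided, Benjamini-Hochberg over 1341 genes) was fitted to log2(normalized count + 1) without a term for the horse. edgeR 4.0.16 and DESeq2 1.42.0 on recovered reads, with the size factors of the authors, were alternatives. The fits were tested on simulated data at an adjusted p below 0.05. Of genes with a true log2 change of 1, limma recovered 28%, edgeR 30% and DESeq2 38%. At a true change of 2 they recovered 92%, 92% and 96%, and at most 0.7% of unchanged genes were called. The titles pair the libraries by animal, and deviations of the 2 libraries of a horse correlated at 0.484 to 0.631. Named genes are the 3 members, all listed members of the gene lists, and the 4 genes of highest within-group correlation with each member, of which 1 is not reported here. Members and lists were chosen with earlier results of these data known, and edgeR without horse 1 or with a block and the fit without the naive library of horse 1 were added after seeing the data. No sequences or coordinates are given.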

Additional observations from a re-analysis of the deposited data

Results flagged for a closer look

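Of 73 sets of 6 values checked for 35 named genes, 15 had a highest or lowest value whose gap to the nearest other exceeded Dixon's 95% critical value, which chance gives for about 5% of sets. In 11 of them the value was that of the naive library of horse 1: 38513 normalized counts for SOD2, 4812 for HMOX1, 11279 for LOX, 3421 for SLC39A14, 1901 for SLC11A2, 501.7 for RELB, 1075 for NFKBIZ, 400.1 for TNFAIP3, 317.6 for IRAK3, 14.82 for TNIP3 and 1880 for IFNAR2, each the highest naive value. The list of 35 genes includes genes picked for their likeness to SOD2, so the sets are not independent. Group levels were checked as normalized counts and not as log2 values. On that scale high values stand out more than low ones, so the number of high values flagged depends in part on the scale. The licensed library of horse 1 was highest for FTH1 at 36594 and for TNIP3 at 61.59 normalized counts. The naive library of horse 4 was highest for MAOB at 93.31, and the licensed library of horse 2 was highest for FGFR3 at 112.5. CAT and SOD3 had no such value in either group, and the CAT level of horse 1 in naive cells, 3075, gave 0.586.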

How the results depend on the processing

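SOD2, SOD3 and CAT kept their direction and limma's thresholds in each of 17 alternatives, with log2 fold changes of 2.64 to 4.46, -3.44 to -2.27 and -2.50 to -1.79. Leaving out 1 horse at a time gave 3.36 to 4.24 for SOD2, -3.09 to -2.57 for SOD3 and -2.07 to -1.79 for CAT. A fit blocked by horse gave an adjusted p of 2.47e-05 for SOD2, 3.79e-05 for SOD3 and 4.37e-06 for CAT, and the number of listed genes called by limma was 1296, against 1276 without it. The block changed no call of the members. Leaving out 1 horse gave 1193 to 1226 called genes. Licensed libraries held more reads on the listed genes than naive libraries, so scaling by the library sum over these genes lowered the log2 fold changes. It left 315 genes called higher, against 649, and 668 called lower, against 627. With TMM scaling 473 were called higher and 660 lower. The difference between the changes of SOD2 and SOD3 was 5.93 to 7.29 with 1 horse left out and that of SOD2 and CAT 5.22 to 6.31. Their adjusted p was then 0.0938 throughout, because 5 horses cannot give an exact permutation p below 0.0625. The difference of SOD3 minus CAT ranged from -1.26 to -0.39. Depth limits SOD3 in licensed cells, at 3 to 8 reads per library.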
